A study of Mus musculus with 5 samples.

Results

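The Ibsp cells described here are stromal cells of the mouse temporomandibular joint (TMJ) disc in which at least 3 unique molecular identifiers (UMIs, each the count of 1 captured mRNA molecule) of Ibsp were found. A cell also had to hold fewer than 3 UMIs of Col2a1, none of Cdh5, Pecam1, Tyrobp or Rgs5, at least 1000 UMIs in all, and at most 30% of its UMIs from the 13 mitochondrial genes. These limits kept 1408 of the 51948 cell barcodes in the files. Without the Ibsp minimum they kept 38945 barcodes, called eligible stromal cells below. The Cdh5 and Pecam1 limits remove endothelial cells, that for Tyrobp myeloid cells and that for Rgs5 pericytes and smooth muscle cells. The cells were thus chosen by their measured Ibsp and Col2a1 UMIs and by the absence of the 4 other genes, and the levels of these genes in them are a description with no test.

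Ibsp encodes bone sialoprotein, an acidic phosphoprotein of the extracellular matrix that binds hydroxyapatite and, through an Arg-Gly-Asp sequence, integrins. It belongs to a family of small integrin-binding glycoproteins with Spp1 (osteopontin), Dmp1, Mepe and Dspp, and is best known from osteoblasts, hypertrophic chondrocytes, cementum and mineralizing cartilage. The TMJ disc is a plate of fibrocartilage that separates the condyle of the jaw from the skull, whose cells range from fibroblasts to chondrocyte-like cells, and it stays largely free of mineral.

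Droplet-based single-cell RNA libraries were made from discs of untreated wild-type C57BL/6 mice at 3 days (3 d), 3 weeks (3 w), 16 weeks (16 w) and 78 weeks (78 w) of age. The remaining library came from 7-week-old mice whose disc had been punctured with a needle at its front band at 5 weeks, 2 weeks before collection. The labels give wild-type C57BL/6 for the injured mice too, whereas the methods of the study describe this injury in Myh11-CreER+;Tm fl/- mice, so their genotype is uncertain. The methods give pups of both sexes at 3 d, males at the other 3 ages and males for lineage tracing with Myh11-CreER. They state neither the sex behind the injured library itself nor how many discs a library pooled. The oldest library is 78 w by its labels, while the name of its deposited matrix carries another age tag, and the labels were followed. Each condition was thus a single library, and stages are compared by ratios with counting intervals and no test. Within libraries, the Ibsp cells were compared with other cells of the same library by edgeR's quasi-likelihood test with Benjamini-Hochberg adjustment on the UMI counts summed per library and cell group.

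The libraries held 125130270 UMIs at 3 d, 125427849 at 3 w, 88998394 at 16 w, 105309834 at 78 w and 31585993 after injury. Ibsp cells numbered 2 at 3 d, 548 at 3 w, 419 at 16 w, 413 at 78 w and 26 in the injured discs. The 2 cells at 3 d had 4 Ibsp UMIs each and no Cytl1 UMI, and they entered no test. Of all barcode sequences, 275 occurred in more than 1 library, and 15 Ibsp cells had a barcode found in another library as well, of which 0 was an Ibsp cell in both. The injured library was the shallowest, with a median of 5045.5 UMIs per Ibsp cell against 17749 at 3 w, 12833 at 16 w and 11415 at 78 w, so the main counts are also given without it.

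The 250 bases before the RefSeq start of Ibsp and of Cytl1 in GRCm38 are shown because Ibsp chose the cells and Cytl1 was named with it as a marker, which the values below bear out in part of the libraries only. Capitals mark matches to short promoter motifs. In Ibsp (chr5:104299037-104299286, plus strand) they are ATTGG, the reverse complement of CCAAT, and TTTATA, known in this gene as an inverted TATA box. In Cytl1 (chr5:37735269-37735518, plus strand) they are TATTTAA.
Ibsp: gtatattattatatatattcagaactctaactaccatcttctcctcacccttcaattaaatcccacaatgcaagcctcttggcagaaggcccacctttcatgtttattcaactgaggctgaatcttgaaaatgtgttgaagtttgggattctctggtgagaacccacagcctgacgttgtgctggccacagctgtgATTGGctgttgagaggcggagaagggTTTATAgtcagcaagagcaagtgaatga
Cytl1: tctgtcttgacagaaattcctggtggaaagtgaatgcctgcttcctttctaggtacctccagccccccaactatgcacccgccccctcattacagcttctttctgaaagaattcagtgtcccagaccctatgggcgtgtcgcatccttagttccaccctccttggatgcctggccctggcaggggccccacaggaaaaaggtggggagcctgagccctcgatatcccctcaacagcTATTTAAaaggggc
The Runx motif TGTGGT has no match in the Ibsp stretch on either strand. Searched on both strands in the same window of 32851 RefSeq promoters, CCAAT was found in 33.8%, TTTATA in 12.4%, TATTTAA in 4.18% and TGTGGT in 14% of them. A match describes the letters only.

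Both genes lie on chromosome 5 of the mouse genome. In the GENCODE annotation of GRCm38, Ibsp (ENSMUSG00000029306) spans 104299171 to 104311469 on the plus strand, and its neighbours on the same strand are Dspp (104170712 to 104180127), Dmp1 (104202613 to 104214102), Mepe (104325329 to 104338611) and Spp1 (104435118 to 104441050). Cytl1 (ENSMUSG00000062329) spans 37735519 to 37739820. Of these neighbours, Spp1 alone passed the filter on low counts in the comparison with other stromal cells described below. Over the 3 w, 16 w, 78 w and injured libraries the Ibsp cells held 4, 11, 10 and 0 UMIs of Dmp1 and 3, 3, 17 and 0 UMIs of Mepe. Dspp, the gene of dentin sialophosphoprotein, had 0 UMIs in the Ibsp cells of all 4 libraries.

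Ibsp cells made up 0.0192% of the eligible stromal cells at 3 d, 7.52% at 3 w, 5.88% at 16 w, 5.27% at 78 w and 0.416% in the injured discs. The exact Clopper-Pearson 95% intervals, which cover counting error only, were 0.00232 to 0.0692%, 6.93 to 8.15%, 5.34 to 6.45%, 4.79 to 5.79% and 0.272 to 0.609% in this order. They were thus all but absent from the newborn library. The share depends on depth, so each eligible cell was also thinned to 1000 UMIs and scored for at least 1 Ibsp UMI. Thinning gave 0.0287% for the 3 d library, 3.60% for 3 w, 4.12% for 16 w, 3.80% for 78 w and 1.25% for the injured one, with intervals of 3.18 to 4.05%, 3.67 to 4.61%, 3.39 to 4.25% and 0.987 to 1.55% for the last 4. By this score the fall of the unthinned share from 3 w to 78 w was not seen at equal depth, where the intervals of these 3 libraries overlapped. With at least 3 Ibsp UMIs in the same thinned cells, the order was the opposite, at 0.192% for 3 w (0.105 to 0.322), 0.828% for 16 w (0.631 to 1.07) and 1.10% for 78 w (0.879 to 1.35).

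Free RNA can give Ibsp UMIs to cells that do not make it. Cells with genes of other cell types were therefore scored for Ibsp as a measure of background. The part of free RNA and of doublets in this background was not tested. Among cells with at least 2 UMIs of the endothelial genes, 0 of 897 at 3 d had 3 or more Ibsp UMIs, for which a limit of 3 counts allows a share of up to 0.334% and the exact interval 0.410%, and the shares were 2.04% at 3 w (1.19 to 3.24), 1.06% at 16 w (0.391 to 2.30), 0.799% at 78 w (0.260 to 1.85) and 0.495% after injury (0.0125 to 2.73). The median depth of these cells was 6468 UMIs at 3 w, 5903 at 16 w, 5351 at 78 w and 2632 after injury, below the 12989, 9341, 9532 and 3582 of the eligible stromal cells. Among cells with at least 3 Tyrobp UMIs, the shares were 1.44%, 3.57%, 0.897% and 0.332% from 3 w on, the second from 3 of 84 cells. At 1000 UMIs, 0.719%, 0.532%, 0.799% and 0.990% of the endothelial-gene cells of the 3 w, 16 w, 78 w and injured libraries had an Ibsp UMI, and 0.478%, 1.19%, 0.448% and 0.997% of the Tyrobp cells. At equal depth the stromal share of the 3 w, 16 w and 78 w libraries was above both, beyond counting error except for the 84 Tyrobp cells at 16 w, and in the injured library it lay within counting error of both. Ibsp in all eligible cells of the injured library was 14.6 UMIs of every 1000000 (CPM). It was 15.8 CPM in the endothelial-gene cells and 9.09 CPM in the Tyrobp cells of that library. The injured share of 26 cells was thus not told apart from background. That background rested on 1 of 202 endothelial-gene cells and 1 of 301 Tyrobp cells with at least 3 Ibsp UMIs.

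**Figure D1:**
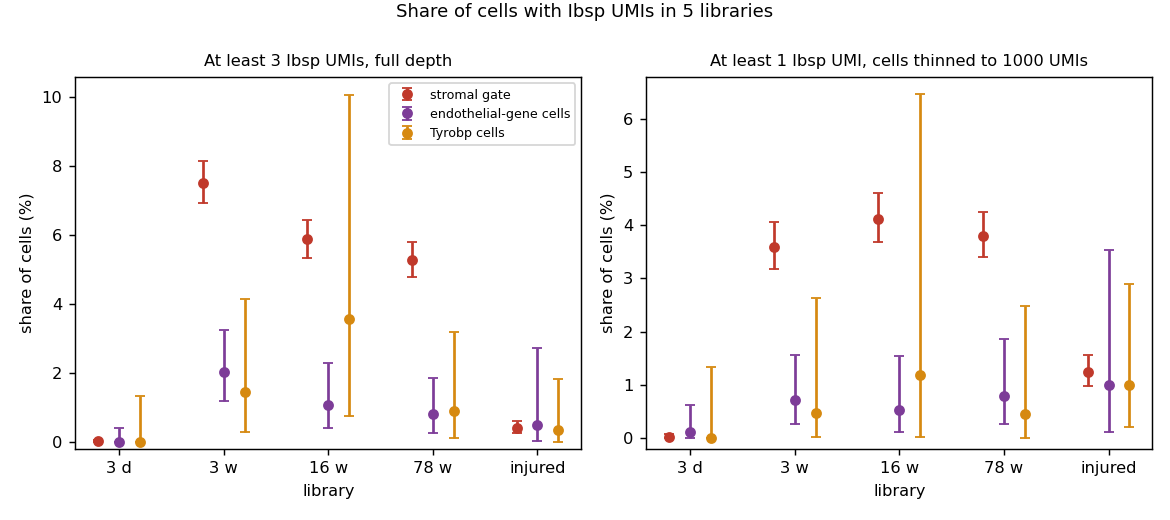
Share of cells with Ibsp (percent, y axis) in each of the 5 libraries (x axis) for eligible stromal cells, endothelial-gene cells and Tyrobp cells, as found and after thinning every cell to 1000 UMIs, with exact 95% intervals as bars. The stromal shares at 3 w, 16 w and 78 w stand above the other groups, with a wide interval for the Tyrobp cells at 16 w, and in the injured library the groups overlap.

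Among the Ibsp cells the Ibsp count itself ran over a wide range. Its median was 6 UMIs at 3 w, 8 at 16 w, 8 at 78 w and 5 after injury, and the highest cell had 104, 329, 974 and 14 UMIs. Cells with 10 or more Ibsp UMIs made up 29.6% of the Ibsp cells at 3 w, 42.7% at 16 w, 45.5% at 78 w and 3.85% after injury, and those with 30 or more made up 5.11%, 14.6% and 18.2% in the 3 normal libraries. The 10 cells with the most Ibsp held 13.5% of all Ibsp UMIs of the Ibsp cells at 3 w, 20.3% at 16 w and 36.1% at 78 w. The older libraries therefore carried more of their Ibsp in a few cells. At the limit itself, 126, 58, 71 and 8 cells of the 3 w, 16 w, 78 w and injured libraries had exactly 3 UMIs, and 220, 147, 141 and 36 eligible cells had 2 and were left out. The Ibsp cells held 84.3%, 91.7% and 93.8% of the Ibsp UMIs of eligible cells in the normal libraries and 37.9% after injury.

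Summed over the Ibsp cells, Ibsp came to 484 CPM at 3 w, 1176 at 16 w, 2141 at 78 w and 992 after injury. A further 239 cells with at least 3 Ibsp UMIs were set aside by the Col2a1 limit, 29 at 3 w, 63 at 16 w, 142 at 78 w and 5 after injury. In the cells with at least 3 Col2a1 UMIs, 46.8% at 3 w, 48.5% at 16 w, 42.5% at 78 w and 3.40% after injury had at least 3 Ibsp UMIs. Below the Col2a1 limit the same minimum was met by the 7.52%, 5.88% and 5.27% of eligible cells given above for these ages, so Ibsp was found on both sides of the limit and in a larger share of the cells above it.

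Cytl1, the other gene named as a marker of these cells, was checked next. Cytl1 encodes cytokine-like protein 1, a small secreted protein made by chondrocytes. Its level was 141.5 CPM in Ibsp cells against 73.7 in eligible cells without any Ibsp UMI at 3 w, 6393 against 1148 at 16 w, 4944 against 2049 at 78 w and 94.1 against 139.3 after injury. Summed over cells, Cytl1 was therefore higher in the Ibsp cells of the 3 normal libraries, although at 3 w the 212 cells with 3 or 4 Ibsp UMIs had 32.8 CPM (27.4 to 39.1), below the cells without Ibsp, while in the injured library the value rested on 13 UMIs with a 95% interval of 50.1 to 161 CPM that spans the other cells' level. At 3 w only 21.4% of the Ibsp cells had a Cytl1 UMI, against 80.4% at 16 w, 80.2% at 78 w and 30.8% after injury. Over the 4 libraries the log2 difference was 1.39 ± 0.30 (SE, adjusted p = 0.00553), and 1.69 ± 0.26 (adjusted p = 0.00711) without the injured library, while DESeq2 gave 1.14 with an adjusted p of 0.486. Against stromal cells without Ibsp, Cytl1 thus marked Ibsp cells at 16 w and 78 w, few of them at 3 w and not those of the injured library. It was not particular to them, with 1637 and 3199 CPM in Chad cells without Ibsp and 15460 and 10398 CPM in Col2a1 cells at 16 w and 78 w, groups that are compared below.

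The first comparison set the Ibsp cells of each library against its eligible stromal cells without Ibsp, 5957 at 3 w, 6230 at 16 w, 6774 at 78 w and 6038 after injury. Of 12581 genes tested, 461 were higher in Ibsp cells (3.66%) and 557 lower (4.43%) at an adjusted p under 0.05. Without the injured library the counts were 435 and 466, of which 359 and 434 were among the former. Ibsp cells had more UMIs than the others, with medians of 17749 against 12385 at 3 w, 12833 against 9023.5 at 16 w, 11415 against 9351 at 78 w and 5045.5 against 3561 after injury, and levels are therefore given in CPM. The libraries differ in age and condition, and the test asks whether the groups differ in the average over them. A called gene need not differ in each library.

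Genes of cartilage matrix stood on the higher side. Of 15 tested genes on a chondrocyte list, 11 were higher and 0 lower, with a median log2 difference of 1.11 beside -0.02 over all genes tested. Without the injured library, 13 of 17 were higher. Chad, the gene of chondroadherin, a leucine-rich protein that links collagen to cell-surface integrins, had 2679 CPM in Ibsp cells against 1213 in the others at 3 w, 8686 against 2233 at 16 w, 4318 against 1322 at 78 w and 3975 against 1293 after injury. It was higher in every library, by 1.65 ± 0.17 on the log2 scale (adjusted p = 5.60e-06). Acan, the gene of the proteoglycan aggrecan, had 50.9 against 19.9 CPM, 52.3 against 20.3, 231.2 against 65.2 and 86.9 against 54.7 in the same order (log2 difference 1.56 ± 0.13, adjusted p = 6.50e-07). The cartilage proteoglycan gene 3110079O15Rik, also known as Snorc, had 18.7 against 3.42 CPM, 60.9 against 8.81, 26.6 against 6.96 and 28.96 against 12.1 (2.48 ± 0.17, adjusted p = 4.00e-08). In the injured library the Ibsp cells held 12 UMIs of Acan and 4 of 3110079O15Rik and the counting intervals of both ratios included 1. In the 3 normal libraries the intervals of all 3 genes lay above 1.

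Col9a2 (log2 difference 1.46), Col9a3 (1.64), Col11a1 (1.19) and Col11a2 (1.51), which encode chains of the minor cartilage collagens, were higher too, as were the chondrocyte genes Hapln1 (0.76), Ucma (1.11) and Fgfr3 (1.00). Mia, which encodes a small secreted cartilage protein, had 7.32 CPM in Ibsp cells against 2.75 in the others at 3 w, 73.4 against 7.49 at 16 w, 23.9 against 5.53 at 78 w and 21.7 against 6.51 after injury, a log2 difference of 2.49 ± 0.24 (adjusted p = 3.74e-06). Sox9, the gene of the transcription factor that drives chondrocyte genes, had 215.7 against 197.2 CPM, 807.6 against 654.3, 863.2 against 667.8 and 811 against 908.1, and did not pass the test (0.24, adjusted p = 0.400). Cartilage matrix genes were thus higher in the Ibsp cells without a called difference in Sox9.

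Some of the largest differences were in secreted proteins. Wif1, which encodes an inhibitor that binds Wnt ligands, had 102.7 CPM against 27.6 at 3 w, 204.9 against 33.8 at 16 w, 196.3 against 6.25 at 78 w and 57.9 against 20 after injury, and its log2 difference was 3.07 ± 0.37 (adjusted p = 3.48e-05). Omd, which encodes osteomodulin, a small leucine-rich proteoglycan of mineralized tissues, had 33.9 against 17.2 CPM, 136.2 against 18.4, 177.5 against 9.92 and 7.24 against 3.85 (2.82 ± 0.37, adjusted p = 7.39e-05). For both genes the gap was wider at 16 w and 78 w than at 3 w. Scube1, a secreted and membrane-bound protein with CUB and EGF-like domains, led the list at 3.31 ± 0.33 (adjusted p = 5.19e-06), with 1.08 against 0.328 CPM, 4.23 against 0.598, 29.8 against 1.90 and 7.24 against 0.676. Chil1, a chitinase-like glycoprotein of cartilage, had 47.1 against 25.7 CPM, 181.3 against 16.7, 246.4 against 56.6 and 28.96 against 9.47 (2.25 ± 0.29, adjusted p = 7.39e-05). In the 26 injured cells 7.24 CPM is 1 UMI, so for Omd and Scube1 the direction in that library rests on 1 molecule.

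Membrane proteins were among the higher genes as well. Cd200, which encodes an immunoglobulin-family glycoprotein that restrains myeloid cells, had 211.1 CPM against 100 at 3 w, 409.4 against 126.7 at 16 w, 315 against 112.4 at 78 w and 311.4 against 78.8 after injury (log2 difference 1.58 ± 0.12, adjusted p = 1.31e-07). Susd5, which encodes a sushi domain protein, had 12.7 against 3.62 CPM, 45.3 against 11.9, 70.7 against 21.8 and 14.5 against 5.41 (1.93 ± 0.11, adjusted p = 8.54e-09). Kcnk2, a potassium channel on the osteoblast list, differed by 3.11 ± 0.34 (adjusted p = 1.19e-05) but was low, at 0.723, 7.11, 11.2 and 14.5 CPM in the Ibsp cells. Il1r2, the decoy receptor of interleukin 1, differed by 1.81, Rarres1 by 1.96, Cd164l2 by 1.64 and A230065H16Rik by 1.43 on the log2 scale, each with an adjusted p under 0.05.

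Some bone genes differed as well. Of 20 genes on an osteoblast and osteocyte list, 11 passed the filter on low counts, with a median log2 difference of 0.89. Of these, 5 were higher (Bglap, Runx2, Col1a1, Cadm1 and Kcnk2) and 1 lower (Dlx3). Without the injured library 6 of 16 were higher and 3 lower. Runx2, the transcription factor needed for osteoblasts, had 4.34 CPM in Ibsp cells against 4.63 in the others at 3 w, 17.1 against 7.60 at 16 w, 28.6 against 13.9 at 78 w and 21.7 against 9.68 after injury (log2 difference 0.91 ± 0.19, adjusted p = 0.00464). It was thus not higher at 3 w. Bglap, the gene of osteocalcin, had 0.542 against 1.19 CPM, 2.37 against 0.432, 18.1 against 1.72 and 0 against 2.62 (2.08 ± 0.54, adjusted p = 0.0237). It was higher in 2 of 4 libraries, and the call was lost without the 78 w library (0.67, adjusted p = 0.561) and without the injured library (adjusted p = 0.124). Several genes that define osteoblasts and osteocytes were at or near 0. The Ibsp cells of the 3 w, 16 w, 78 w and injured libraries held 0, 2, 24 and 0 UMIs of Sp7. They held 10, 6, 4 and 0 of Ifitm5, 1, 0, 1 and 0 of Phex, and 0 of Sost in all 4. Alpl, on the same list, was not near 0 at 78 w. There it had 67 UMIs in cells of 10 to 29 Ibsp UMIs and 158 in those of 30 or more.

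Of 12 genes on a hypertrophic cartilage list 5 passed the filter, and 4 of them were higher in the Ibsp cells (median log2 difference 0.80), namely Spp1, Runx2, Mef2c and Pth1r, the receptor of parathyroid hormone and its related peptide. Pth1r had 80.9 against 67.1 CPM at 3 w, 85.4 against 62.3 at 16 w, 182.4 against 71.2 at 78 w and 101.4 against 65.8 after injury (0.80 ± 0.15, adjusted p = 0.00193). Several members that define hypertrophic cells were near 0 and did not reach the filter. They had 1, 0, 10 and 0 UMIs of Col10a1, 1, 1, 33 and 0 of Mmp13 and 1, 0, 0 and 0 of Ihh. Alpl, also on this list, was not near 0 at 78 w. It had 44.9 CPM there in cells of 10 to 29 Ibsp UMIs and 131 in those of 30 or more. The Ibsp cells at 3 w and 16 w therefore carried Ibsp with next to no osteocalcin, osterix or type X collagen transcripts.

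Spp1 was the only member of the bone sialoprotein family besides Ibsp to pass the filter. It had 1278 CPM in Ibsp cells against 791.4 in the others at 3 w, 518.8 against 396.1 at 16 w, 4767 against 724.6 at 78 w and 1072 against 365.3 after injury. It was higher in all 4 libraries, by 1.36 ± 0.27 on the log2 scale (adjusted p = 0.00303), with the widest gap at 78 w. The call was lost without the injured library (1.37 ± 0.38, adjusted p = 0.0782). Col1a1, the gene of the main bone and tendon collagen chain, had 22289 against 10853 CPM, 1165 against 883.2, 2144 against 783.2 and 27537 against 22925 (0.83 ± 0.23, adjusted p = 0.0315). The Col1a1 call was lost against comparison cells matched for UMI count (0.60, adjusted p = 0.137) and without the 78 w library (0.57, adjusted p = 0.327).

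**Figure D2:**
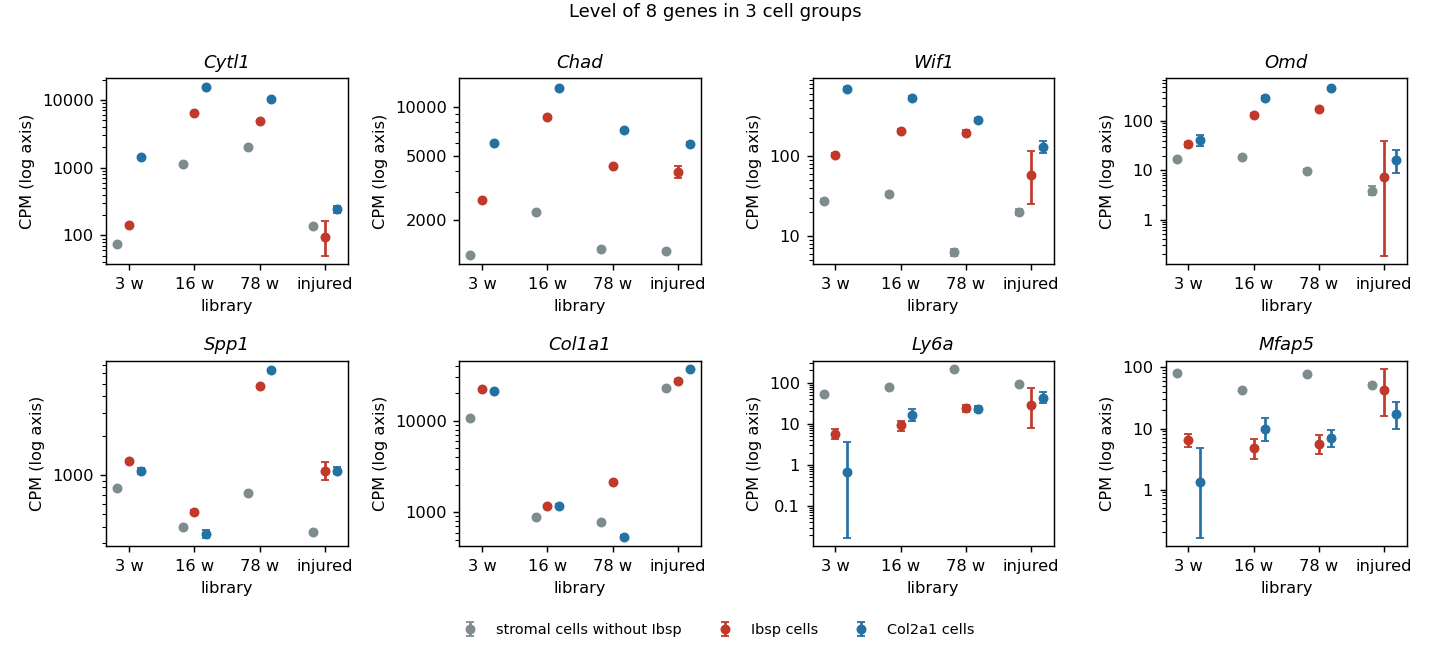
Levels of 8 genes (CPM, log y axis) in the 3 w, 16 w, 78 w and injured libraries (x axis) for stromal cells without Ibsp, Ibsp cells and Col2a1 cells, with exact Poisson 95% intervals as bars. Chad, Wif1 and Omd stand higher in Ibsp cells than in cells without Ibsp in all 4 libraries, Cytl1 in the 3 normal libraries, and Ly6a and Mfap5 stand lower, with wide intervals for the 26 injured Ibsp cells, where Omd rests on 1 UMI.

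Genes of adventitial fibroblasts were lower in the Ibsp cells. Of 12 such genes tested, 9 were lower and 0 higher, with a median log2 difference of -1.20, and the count was the same without the injured library. Ly6a, the gene of the progenitor marker Sca-1, had 5.69 CPM in Ibsp cells against 54.5 in the others at 3 w, 9.14 against 78.7 at 16 w, 23.7 against 212 at 78 w and 28.96 against 92.0 after injury, and differed by -3.02 ± 0.12 (adjusted p = 8.14e-11). Mfap5, which encodes a protein of elastic microfibrils, had 6.42 against 81.3 CPM, 4.74 against 43.6, 5.60 against 78.9 and 43.4 against 51.8 (-3.37 ± 0.19, adjusted p = 7.62e-09). The gap in Mfap5 was wide in the 3 normal libraries and slight in the injured one. Pi16, a marker of the same fibroblasts, had 0.271 against 20.5 CPM, 1.69 against 57.5, 3.62 against 155.3 and 7.24 against 7.10 (-5.26 ± 0.20), lower in 3 of 4 libraries.

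Clec3b (log2 difference -2.79 ± 0.14), Apod (-3.00 ± 0.16), Cyp1b1 (-2.98), Clic5 (-2.95), Inmt (-2.94) and Hhip (-2.81), the last an antagonist of hedgehog ligands, were lower in every library. In the injured library Cyp1b1, Clic5, Inmt and Hhip had 0 CPM against 10.7, 5.45, 0.803 and 13.5 in the others. Apod had 7.24 CPM there, which is 1 UMI. The direction of these 5 genes in that library thus rests on 1 molecule or none. Sfrp2, which encodes a secreted modulator of Wnt, had 2.80 CPM against 35.1 at 3 w, 0.677 against 15.3 at 16 w, 5.42 against 20.7 at 78 w and 7.24 against 147.1 after injury (-3.06 ± 0.25). The inflammatory genes Il6 and Il33 were lower as well. Il6, the gene of interleukin 6, had 4.61 against 63.8 CPM, 6.09 against 26.1, 7.77 against 51.8 and 0 against 1.99 (-2.87 ± 0.21, adjusted p = 1.15e-07), and the alarmin gene Il33 differed by -3.82 ± 0.25. Of 13 genes of iron handling, complement and the acute phase, a list that also holds Il6 and the chemokines Cxcl1, Cxcl12 and Ccl2, 11 were lower and 1 higher, with a median of -1.32. C3, the central complement component, had 8.59 against 17.7 CPM, 41.5 against 94.1, 118.6 against 224.5 and 7.24 against 26.6 (-0.92 ± 0.10, adjusted p = 1.84e-05). Saa3 (-3.86) and C1s1 (-2.46) were further down, and Lcn2, the gene of the iron-siderophore binding protein lipocalin 2, was the exception at 1.09 ± 0.18.

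The 4 lowest log2 differences were those of globins, Hba-a1 (-7.60 ± 0.32), Hbb-bt (-6.69), Hba-a2 (-6.40) and Hbb-bs (-6.35). Globins are made by red blood cells, which the limits on other cell types do not remove. The genes of an erythroid list, of which 4 were tested, summed to 0.633 CPM in Ibsp cells against 42.4 in the others at 3 w. Their sums were 3.05 against 81.5 at 16 w, 7.95 against 1548 at 78 w and 65.2 against 1164 after injury, with Hbb-bs the most abundant. Where every cell also had to hold at least 5 UMIs of 5 matrix genes, the difference of Hba-a1 was -5.06, that of Hba-a2 -3.90 and that of Hbb-bs -3.99. Macrophage genes summed to 8.50 against 17.6 CPM, 13.9 against 16.0, 19.5 against 37.9 and 57.9 against 72.0, endothelial genes to 3.34 against 4.47, 5.24 against 7.17, 6.51 against 7.29 and 7.24 against 10.4. Of 5 macrophage genes 2 were lower, and of 3 endothelial genes none passed the test. Of 7 mural genes 4 were lower, Myh11 and Acta2 among them, and Cspg4 was higher, at 136.9 against 92.5 CPM, 178.1 against 145.5, 173.3 against 154.9 and 79.7 against 65.0 (log2 difference 0.45, adjusted p = 0.0106). The mural genes summed to 163.7 against 139.6 CPM, 197.8 against 290.9, 219.2 against 316.2 and 101.4 against 97.6, with Cspg4 the most abundant in the Ibsp cells. S100b, a gene on the Schwann cell list that chondrocytes also express, was higher (0.98). The part of other cells in these differences was not tested.

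Further matrix groups were counted in the same way. Of 22 genes typical of fibrocartilage and the articular surface, 10 were higher and 1 lower, the latter Mgp, the gene of matrix Gla protein, an inhibitor of mineralization (-0.51 ± 0.15, adjusted p = 0.0496). The call of Mgp was lost without the 3 w (adjusted p = 0.0606), the 16 w (0.261) or the 78 w library (0.100). Comp, which encodes cartilage oligomeric matrix protein, had 8805 CPM against 4756 at 3 w, 9669 against 4726 at 16 w, 12667 against 6575 at 78 w and 5670 against 3086 after injury (0.98 ± 0.17, adjusted p = 0.000964). Prg4, the gene of lubricin, did not pass the test (-0.25, adjusted p = 0.595), nor did Cilp (-0.36, adjusted p = 0.205). Of 11 tenocyte genes 0 were higher and 1 lower, of 9 synovial lining genes 6 were lower and 0 higher, and of 15 collagens 6 were higher and 2 lower. Among 14 hypoxia genes and 6 cell-cycle genes none passed the test, and of 11 genes induced by tissue dissociation 2 were lower, the heat shock genes Hspa1a and Hspa1b.

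**Figure D3:**
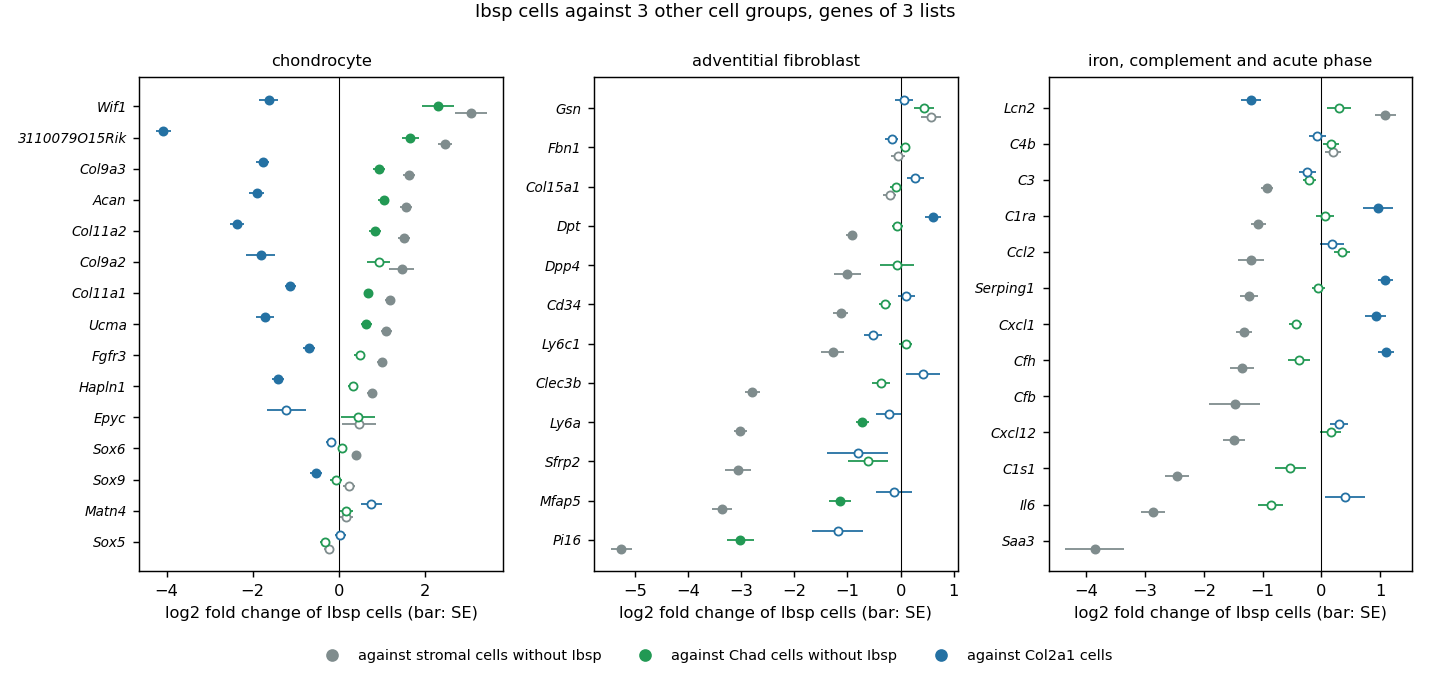
Log2 difference with SE (x axis) of the genes of the chondrocyte, adventitial fibroblast and iron, complement and acute phase lists (y axis), for Ibsp cells against stromal cells without Ibsp, against Chad cells without Ibsp and against Col2a1 cells, filled where the adjusted p is under 0.05. Most chondrocyte genes stand to the right of 0 against cells without Ibsp and most to the left against Col2a1 cells, Matn4 and Sox5 being to the right there without being called.

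Because Chad was the gene most like Ibsp, the second comparison took stromal cells with at least 3 Chad UMIs and no Ibsp. Likeness was the rise in the share of cells with a UMI at 1000 UMIs, in percentage points, averaged over the 4 libraries. This rise was 36.8 points for Chad, 31.4 for 1500015O10Rik, 24.4 for Clu, 23.1 for Spp1, 18.1 for Scrg1, 17.4 for Abi3bp, 17.4 for Timp3, 16.7 for Myoc, 15.3 for Cytl1, 15.3 for Mfge8, 14.6 for Comp and 13.1 for Cd200. The Chad share was 72.3% of Ibsp cells against 37.2% of cells without Ibsp at 3 w, 93.3% against 47.1% at 16 w, 69.7% against 37.3% at 78 w and 73.1% against 39.5% after injury. Most Ibsp cells therefore carried Chad, as did a large share of the other stromal cells.

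Against 2967, 3381, 3041 and 2155 Chad cells without Ibsp at 3 w, 16 w, 78 w and after injury, 109 of 11778 genes were higher in Ibsp cells (0.925%) and 54 lower (0.458%). Without the injured library 56 and 36 were called, of which 50 and 33 were among the former. Scube1 (2.69 ± 0.28, adjusted p = 7.65e-05) and Susd5 (1.46 ± 0.12, adjusted p = 5.91e-06) were higher, with 0.415, 0.788, 3.40 and 1.33 CPM of Scube1 and 4.71, 15.1, 30.2 and 9.02 CPM of Susd5 in the Chad cells of the 4 libraries, all under the values of the Ibsp cells given above. Wif1 (2.30 ± 0.37, adjusted p = 0.00368) and Omd (2.59 ± 0.35, adjusted p = 0.000818) were higher as well. Their calls were lost without the injured library, at adjusted p = 0.0750 for Wif1 and 0.0505 for Omd, as were those of Il1r2 (0.0703), Mia (0.0588), Spp1 (0.252) and, on the lower side, Pthlh (0.0724) and Ankrd1 (0.160). Rarres1 (2.10 ± 0.29), 3110079O15Rik (1.66 ± 0.19) and Acan (1.04, adjusted p = 0.000193) were higher in Ibsp cells, and Cytl1 was not called (0.79 ± 0.31, adjusted p = 0.332).

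By groups, 7 of 15 chondrocyte genes were higher than in Chad cells and 0 lower (median 0.64), and 6 of 17 without the injured library. On the osteoblast list 3 of 8 were higher, and 1 of 13 without the injured library. Of 12 adventitial genes 3 were lower, and of 11 genes of the iron, complement and acute phase list 0 passed the test in either direction. Differences on that list were therefore called against all other stromal cells and not against Chad cells. Among genes lower in every library, the globins Hba-a1 (-5.88), Hbb-bs (-4.83) and Hba-a2 (-4.69) led, followed by Ajap1 (-1.52), Slurp1 (-1.42), Pthlh (-1.35), Tesc (-1.28) and Ankrd1 (-1.23). In the injured library Ajap1 and Pthlh had 0 CPM against 5.54 and 9.02 in the Chad cells, where 1 UMI of the Ibsp cells is 7.24 CPM. Pi16, lower in 3 of 4 libraries, differed by -3.02.

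The third comparison set the Ibsp cells against the cells that the Col2a1 limit kept apart, 62 at 3 w, 130 at 16 w, 334 at 78 w and 147 after injury, in which Ibsp could take any value. Col2a1 encodes type II collagen, the main collagen of cartilage. Of 10178 genes, 236 were higher in the Ibsp cells (2.32%) and 306 lower (3.01%), and 209 and 244 without the injured library, of which 190 and 223 were among the former. Without the 78 w library 87 and 142 were called, and 58 and 98 with Col2a1 cells matched for UMI count. Of 16 chondrocyte genes 12 were lower in the Ibsp cells and 0 higher (median -1.32). 3110079O15Rik had 18.7 CPM in Ibsp cells against 229.8 in Col2a1 cells at 3 w, 60.9 against 805.1 at 16 w, 26.6 against 648.5 at 78 w and 28.96 against 446.8 after injury (-4.08 ± 0.17, adjusted p = 1.70e-15). Acan had 50.9 against 152.5 CPM, 52.3 against 353.3, 231.2 against 532.2 and 86.9 against 231.3, a log2 difference of -1.91. Cytl1 was also lower, at 141.5 against 1447 CPM, 6393 against 15460, 4944 against 10398 and 94.1 against 243 (-1.93 ± 0.26, adjusted p = 9.66e-06).

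Bglap, at 0.542 CPM against 1.33, 2.37 against 11.1, 18.1 against 71.0 and 0 against 3.18, differed by -2.10 ± 0.22, and Bglap2 by -2.07. Spp1 was not called (-0.06, adjusted p = 0.925), and its sign turned without the 78 w or the injured library. Scube1 (-2.25), Col11a2 (-2.37), Mfi2 (-2.89), Fxyd3 (-3.57) and Krt16 (-3.83) were lower too. On the higher side, 7 of 11 tenocyte genes were called and 0 lower (median 0.63), and 2 of 11 with Col2a1 cells matched for UMI count. They included the small leucine-rich proteoglycan genes Aspn (1.06) and Kera (1.22), the tendon transcription factor gene Scx (0.48), Thbs4 (0.80) and Col14a1 (1.14). Kera (adjusted p = 0.0483) was not higher in every library, at 31.5 CPM in Ibsp cells against 38.0 at 3 w, 21.2 against 16.6 at 16 w, 53.0 against 3.95 at 78 w and 65.2 against 14.9 after injury. Of 11 dissociation-induced genes 7 were higher, Fos (1.07) and Egr1 (0.87) among them.

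The named genes on this higher side were Crabp1 (2.87 ± 0.52), a retinoic acid binding protein, Tnfsf15 (2.72 ± 0.36), Postn (2.72 ± 0.50), Wisp2 (2.29 ± 0.22, adjusted p = 4.72e-08), Itgbl1 (2.25), Aqp1 (2.12), Inhbb (2.10) and Ackr4 (1.84). Postn, the gene of the matrix protein periostin, and Itgbl1 rested on the 78 w library, without which they differed by 0.81 (adjusted p = 0.381) and 0.90 (adjusted p = 0.317). Chondrocyte genes of at least 5 CPM rose in order from cells without Ibsp to Ibsp cells to Col2a1 cells for 13 of 16 genes at 3 w, 12 of 14 genes at 16 w, 10 of 14 genes at 78 w and 8 of 16 genes after injury, while 0 of 11 tenocyte genes did in any library. Over all genes of at least 5 CPM the share that rose in this order was 14.3% at 3 w, 11.4% at 16 w, 11.6% at 78 w and 4.74% after injury. Genes of the fibrocartilage list were mixed, with 10 of 21 rising and 5 falling at 3 w, 9 and 6 at 16 w, 8 and 3 at 78 w, and 5 and 1 after injury. Most chondrocyte genes of the normal libraries thus had a level in the Ibsp cells between those of the other stromal cells and the Col2a1 cells.

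Levels of Chad, Comp and Col1a1 also rose with the number of Ibsp UMIs in the 3 normal libraries, which not all genes did. From cells without Ibsp to those with 30 or more Ibsp UMIs, Col1a1 went from 10853 to 30861 CPM at 3 w. It went from 883.2 to 1261 at 16 w and from 783.2 to 3717 at 78 w. Acan rose likewise at 3 w (19.9 to 79.5 CPM) and 78 w (65.2 to 354.8). At 16 w Acan had 20.3 CPM in cells without Ibsp, 69.7 at 3 or 4 Ibsp UMIs and 37.5 at 30 or more. In classes of 0, 1 to 2, 3 to 4, 5 to 9, 10 to 29 and 30 or more Ibsp UMIs, Chad had 1213, 2167, 2189, 2475, 3213 and 4024 CPM at 3 w, 2233, 5339, 6292, 8094, 9243 and 12433 at 16 w, and 1322, 2432, 3091, 3578, 4415 and 6509 at 78 w. The Chad value was higher in each class than in the class before it, with the classes of 1 to 2 and 3 to 4 UMIs at 3 w within counting error of each other. Cytl1 had 73.7, 95.2, 32.8, 114.4, 254.2 and 379.3 CPM at 3 w, 1148, 3165, 3751, 7402, 5988 and 9119 at 16 w and 2049, 3595, 3458, 4693, 6508 and 5049 at 78 w, without such an order. Spp1 at 78 w had 724.6, 1720, 2214, 4093, 4039 and 9452 CPM. Comp had 4756 CPM in the lowest and 10762 in the highest class at 3 w, 4726 and 11209 at 16 w, and 6575 and 13673 at 78 w. Prg4 and Cilp had no common direction. From cells without Ibsp to the highest class, Prg4 went from 3371 to 1139 CPM in the 3 w library, from 7881 to 10311 in the 16 w library and from 12461 to 15045 in the 78 w library, and Cilp from 1569 to 1011, from 2663 to 1010 and from 2607 to 2947 CPM. For Chad, cells with 1 or 2 Ibsp UMIs, just outside the limit, stood above cells without Ibsp, below those with 3 or 4 at 16 w and 78 w, and level with them within counting error at 3 w. The class of 30 or more held 28, 61 and 75 cells in these libraries.

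**Figure D4:**
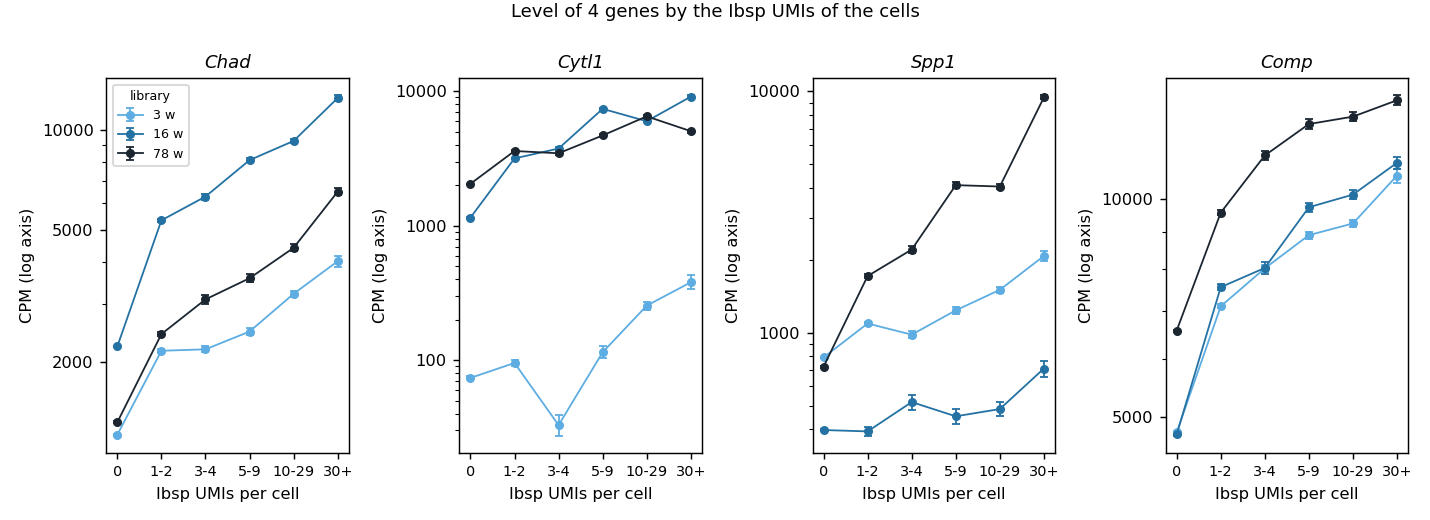
Levels of Chad, Cytl1, Spp1 and Comp (CPM, log y axis) by class of Ibsp UMIs per cell (x axis) at 3 w, 16 w and 78 w, with exact Poisson 95% intervals as bars. Chad increases over the classes in all 3 libraries, with the classes of 1 to 2 and 3 to 4 level at 3 w.

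The Ibsp cells differed between stages, each of which is a single library, so that age cannot be told apart from the library. From 3 w to 16 w, 335 of 7114 genes with at least 100 UMIs in the higher library were at least 2-fold higher in the Ibsp cells (4.71%) and 461 at least 2-fold lower (6.48%). Most collagens were on the lower side, with 11 of 15 at least 2-fold lower and 1 higher. The minimum of 100 UMIs is met at a lower level in the deeper 3 w library, so the counts of the 2 directions are not balanced. Col1a1 was at 0.0523 of its 3 w level, beside 0.0814 in the cells without Ibsp, and Col3a1 at 0.0654 beside 0.130. Tnmd, which encodes the tendon membrane protein tenomodulin, went from 103.5 to 2.20 CPM, a ratio of 0.0213 beside 0.0949 in the other cells, and Aoc2 from 143.1 to 2.20 CPM. Saa1 went from 200 UMIs to 0 and Col9a1 from 211 UMIs to 2.

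On the higher side, Cytl1 was 45.2-fold higher at 16 w than at 3 w (95% counting interval 43.0 to 47.6) in Ibsp cells and 15.6-fold higher in the others. Coch was 96.9-fold higher (37.3 to 358.9, others 16.7-fold) and Penk, the gene of the opioid precursor proenkephalin, 92.7-fold (55.9 to 166.5, others 8.50-fold). Chad was 3.24-fold higher in Ibsp cells and 1.84-fold in the others, Prg4 5.79-fold and 2.34-fold, Mia 10.0-fold and 2.72-fold, and Omd 4.02-fold and 1.07-fold. Sox9 (3.74-fold beside 3.32-fold) and Comp (1.10-fold beside 0.994-fold) moved alike in both groups. Of 11 dissociation-induced genes 9 were at least 2-fold higher at 16 w, among them Egr1 (6.22-fold beside 2.51-fold) and Fos (4.18-fold beside 1.61-fold). The cause of that difference between the libraries was not tested.

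From 16 w to 78 w fewer genes differed, with 119 of 5671 at least 2-fold higher (2.1%) and 83 at least 2-fold lower (1.46%). Spp1 was 9.19-fold higher in the Ibsp cells (8.85 to 9.54) and 1.83-fold in the others. In the Col2a1 cells Spp1 went from 351.6 CPM at 16 w to 6432 at 78 w, so its rise was not particular to the Ibsp cells. Alpl, the gene of the alkaline phosphatase that mineralizing cells need, went from 7 UMIs to 227, a ratio of 34.7 (16.6 to 87.2), beside 1.91 in the others. Of the 227 UMIs, 145 lay in the 29 cells described in the next paragraph, which were chosen in part by Alpl. The other Ibsp cells at 78 w had 16.0 CPM of Alpl. Postn went from 1 UMI to 306, a ratio of 326.9 (58.2 to 12956) beside 4.78, and Chrdl2, which encodes a BMP antagonist, was 39.5-fold higher (16.6 to 123.2) beside 3.65-fold. Tnn (9.47-fold beside 4.80-fold), Lum (6.57-fold beside 2.80-fold), Sfrp4 (16.0-fold beside 4.03-fold) and Ptch1, the hedgehog receptor and target (2.56-fold beside 0.994-fold), were higher. For Sfrp4, the same 29 cells held 102 UMIs and the other Ibsp cells at 78 w 123 (24.0 CPM). Chad was at 0.497 of its 16 w level beside 0.592 in the others, and Cytl1 at 0.773 beside 1.79. Wif1 stayed at 0.958 in Ibsp cells, while in the others it was at 0.185. Thbs1 (0.122 beside 0.338) and Cck (0.0996 beside 0.477) were on the lower side.

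A small number of Ibsp cells at 78 w carried mineralization genes together. Cells with UMIs of at least 2 of the 8 genes Alpl, Bglap, Bglap2, Sp7, Phex, Ifitm5, Dmp1 and Mepe, a rule set after the values were seen, numbered 29 of 413 in the 78 w library (7.02%, 4.75 to 9.93), against 1 of 548 at 3 w, 3 of 419 at 16 w and none of the 26 after injury. At 78 w they were 0.472% of the cells without Ibsp and 10.2% of the Col2a1 cells. The 29 cells had a median of 55 Ibsp UMIs against 8 over all 413, and held 41.3% of the Ibsp UMIs, so that Ibsp in the remaining cells was 1358 CPM. Their median of 10652 UMIs was near that of the Ibsp cells of the library as a whole. With the cells sorted by Ibsp class, Alpl at 78 w had 0.634, 0.264, 0.707, 0.704, 44.9 and 131 CPM and Bglap 1.72, 2.77, 2.83, 6.33, 12.1 and 57.2 CPM. Alpl was thus under 1 CPM in every class with fewer than 10 Ibsp UMIs.

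Other genes of these 29 cells, which the rule did not use, were set against the other Ibsp cells at 78 w as a description. Among listed genes with at least 30 UMIs in both together, the largest ratios were those of the collagenase gene Mmp13 (24.98, 11.6 to 57.1, with its 22 UMIs in 6.90% of the 29 cells) and of the Wnt antagonists Frzb (23.9, 11.4 to 52.8) and Dkk1 (12.1, 6.99 to 20.8). Omd had 816.9 CPM against 126.3 (6.47, 5.65 to 7.39), Wif1 887.7 against 140.9 (6.30) and Sfrp4, a secreted modulator of Wnt, 248.7 against 24.0 (10.4, 7.89 to 13.6). Spp1 had 13627 CPM against 4058 (ratio 3.36). Runx2 (2.93), Ptch1 (4.25), Enpp1, which makes the mineralization inhibitor pyrophosphate (3.28), Tnfrsf11b, the decoy receptor of the osteoclast factor RANKL (2.28), Acan (2.21) and Chad (1.72) were higher by the ratios given. Kera, a tendon and cornea proteoglycan gene, had 2 UMIs in the 29 cells (0.0859, 0.0104 to 0.313). Cytl1 had 1502 against 5220 CPM (0.288, 0.265 to 0.312), and C3 (0.213), Thbs1 (0.162) and Cd34 (0.158) were lower as well, with Comp near level at 0.923. The 2 marker genes thus parted in these cells, high in Ibsp and low in Cytl1.

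**Figure D5:**
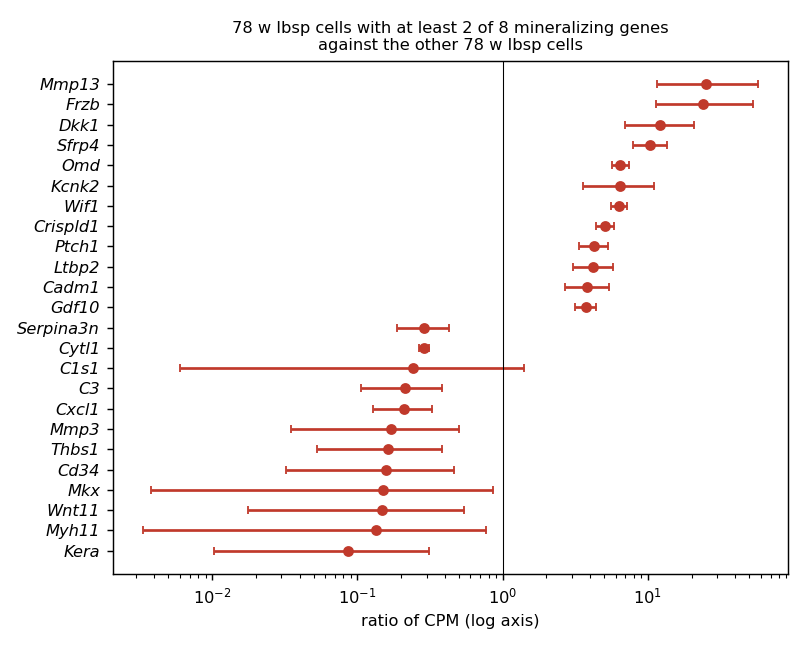
Ratio of the level in the 29 Ibsp cells with mineralization genes to that in the other Ibsp cells of the 78 w library (log x axis) for the 12 highest and 12 lowest ratios among listed genes with at least 30 UMIs and at least 1 in the 29 cells (y axis), with 95% counting intervals as bars. Mmp13, Frzb, Dkk1 and Sfrp4 stand furthest above 1 and Kera furthest below. Several of the low ratios have wide intervals, while that of Cytl1 is narrow.

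The injured library was nearest in age to the 3 w library. Against it, 40 of 4874 genes were at least 2-fold higher (0.821%) and 665 at least 2-fold lower (13.6%) in the Ibsp cells. These values rest on 26 cells with 138106 UMIs in all, in a library whose Ibsp share was not told apart from background. A gene also had to hold 100 UMIs in the library where it was higher, which so few cells reach only for abundant genes, so the 2 counts cannot be set against each other. Igfbp5, which encodes an insulin-like growth factor binding protein, was 5.41-fold higher beside 2.71-fold in the cells without Ibsp, Egr1 4.12-fold beside 1.04-fold and Tmsb10 7.09-fold beside 5.65-fold. Dlk1, a membrane protein related to Notch ligands, was at 0.0623 of its 3 w level beside 0.662. Injury, age and library cannot be told apart here.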

How the data were processed

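The authors deposited the UMI counts of 27998 genes per cell barcode as Cell Ranger wrote them, with no normalization. The file headers name version 4.0.0, the processing notes of the submitters version 3.1 and mm10. The counts were used as deposited. No doublets were removed, but an alternative left out cells above the 95th percentile of UMIs. Cells, Ibsp members included, and gene lists were chosen with earlier results of these data known.

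Counts were summed per library and cell group, where at least 20 cells were present, which left 4 of 5 libraries (the 3 d library had 2 Ibsp cells). edgeR 4.0.16 in R 4.3.3 (quasi-likelihood test, filterByExpr, TMM, library as block, Benjamini-Hochberg over all genes tested) gave log2 differences with SE. DESeq2 1.42.0 was an alternative. The library pairs the groups because their cells come from the same discs. Since each condition is a single library, p-values measure the average difference against its spread over libraries of different age. They do not ask for the same direction in each. The named genes were the 15 (first comparison) or 8 largest called differences in each direction, with at least 10 CPM in the higher group's mean and the same direction in every library. Between stages the 5 largest ratios each way were ranked, from genes holding 100 UMIs or more in the higher library, with counts under 3 taken as 3, and those described are among them or on the lists. Genes of the fixed lists are named besides, and Pi16, lower in 3 of 4 libraries, for its list. Intervals are exact 95% intervals (Python 3.11.15, scipy 1.17.1) and cover counting error only. The test was run on simulated counts beforehand. All columns were mapped to a library.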

Additional observations from a re-analysis of the deposited data

Results flagged for a closer look

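For 8 genes of the lists, among those with at least 100 UMIs over both cell groups in every library, the level in Ibsp cells relative to stromal cells without Ibsp lay at least 1.5-fold above 1 in 1 library and as far below it in another, with counting intervals that did not reach 1. The difference between libraries was not tested, since each condition is a single library.

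The immediate-early genes Egr1 (ratio 0.4406 at 3 w and 1.75 after injury), Ier2 (0.5914 and 1.68) and Jun (0.4714 and 1.659) and the BMP target Id3 (0.6055 and 2.017) were lower in Ibsp cells at 3 w and higher in those of the injured library. Egr1 was 183 CPM in Ibsp cells against 415.3 in the others at 3 w and 753 against 430.3 after injury. The injured values rest on 26 cells of a library whose Ibsp share was not told apart from background.

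Lum, the gene of the collagen-binding proteoglycan lumican, had a ratio of 0.6584 at 16 w and 1.544 at 78 w. Chrdl2 had 0.2141 at 16 w (0.846 against 3.95 CPM) and 2.318 at 78 w (33.4 against 14.4 CPM). Rspo2, the gene of an activator of Wnt signalling, had 0.6214 at 78 w and 1.671 at 3 w. Fabp4, which encodes a fatty acid binding protein of adipocytes and capillary endothelium, had 0.3216 at 16 w and 2.048 at 78 w, at 15 CPM or less in all Ibsp cells.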

How the results depend on the processing

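Of 37 single genes followed in the first comparison, at most 2 lost their call under any alternative that kept the library block. The 37 leave out Bglap, Runx2 and other list genes of the report, and most were named for their large called differences in these same data. Over all genes called in the first comparison, DESeq2 kept 53.8% of the higher and 56.0% of the lower ones. An Ibsp minimum of 5 UMIs kept 64.0% and 65.2% of them. Of 24 single genes in the second comparison, 10 lost their call with that minimum and 7 without the injured library. With DESeq2 the first comparison called 263 higher and 318 lower genes, the second 61 and 34, and that against Col2a1 cells 92 and 144. Leaving out a library in turn gave 303 to 607 and 466 to 566 in the first, 56 to 205 and 36 to 123 in the second, and 87 to 298 and 142 to 398 against Col2a1 cells, with 303 without 16 w, 205 and 91 without 3 w, 200 and 123 without 78 w and 56 without the injured library, and, against Col2a1 cells, 87 and 142 without 78 w and 189 lower without 16 w. In the second, no filter on low counts gave 292 and 197, an Ibsp minimum of 5 gave 39 and 25, and leaving out the cells with most UMIs 165 higher. Against Col2a1 cells, the minimum of 5 gave 108 and 147, and Col2a1 cells matched for UMIs 58 and 98. That minimum leaves the injured library out.

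Without the library block that pairs cell groups, 0 and 5 genes were called in the first comparison and 0 and 0 in the other comparisons, at an unadjusted p under 0.05 for 614, 149 and 247 genes.

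A few directions turned. In the first comparison Prg4 came to 0.011 without the block and ranged from -0.41 to 0.048 with a library left out (above 0 without 3 w). Against Col2a1 cells, Prg4 came to 0.032 with matched cells and Spp1 to 0.18 with the minimum of 5, and without the block Col1a1 came to -0.42 and Cilp to -0.088. With a library left out, Spp1 ranged from -0.23 to 0.14 (above 0 without 78 w, and at 0.03 without the injured library), Col1a1 from -0.27 (without 78 w) to 0.57 and Cilp from -0.23 (without 3 w) to 0.29. The causes were not tested.

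The share of Ibsp cells at a minimum of 2 UMIs was 10.5% at 3 w, 7.94% at 16 w, 7.07% at 78 w and 0.992% after injury, at 5 UMIs 0%, 4.61%, 4.40%, 3.86% and 0.224% from 3 d on, and at 3 UMIs after thinning 0%, 0.192%, 0.828%, 1.10% and 0.0160%. With at least 1 UMI after thinning it was 3.60%, 4.12%, 3.80% and 1.25% from 3 w on. Without the Col2a1 limit it was 6.64% at 16 w and 6.80% at 78 w, and without the cells of most UMIs 6.54% at 3 w. Injured against 3 w, the minimum of 5 gave 25 higher and 432 lower genes in place of 40 and 665, and equal weights per cell 62 higher.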

Other observations

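On 3 signalling lists not described above, more genes were called lower than higher in Ibsp cells against stromal cells without Ibsp. Over all genes tested 3.66% were higher and 4.43% lower, with a median of -0.02. Of 18 Wnt genes, 1 was higher (Wif1) and 8 were lower (median log2 difference -0.38), among them the secreted inhibitors Sfrp1 (-0.83) and Sfrp4 (-1.55). Of 18 genes of the insulin-like and fibroblast growth factor pathways, 3 were higher and 7 lower (median -0.50), with Igf1 at -1.05, Igfbp3 at -1.86, Igfbp5 at -1.0 and Fgf18 at -0.84, while Fgf2 was higher at 0.87. Of 32 TGF-beta and BMP genes, 2 were higher and 9 lower (median 0.03), with Gdf10 at 1.14 and Bmp4 at -0.98. Without the injured library these counts were 3 and 8 of 20, 4 and 6 of 18, and 2 and 7 of 32.

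Pthlh, the gene of parathyroid hormone-related peptide, had 4.61 CPM in Ibsp cells against 22.7 in the others at 3 w, 4.40 against 35.2 at 16 w, 11.2 against 37 at 78 w and 0 against 20.7 after injury (-2.15 ± 0.18, adjusted p = 4.66e-07), while the gene of its receptor, Pth1r, was higher. Of 7 genes that promote mineralization 0 were higher and 1 was lower (Bmp1), and of 9 that inhibit it 2 were higher and 2 lower. Of 11 integrin genes 1 was higher and 2 were lower, of 28 genes on a list of skeletal transcription factors, which also holds the secreted Cytl1, 6 were higher with Cytl1 among them and 4 lower, and of 23 matrix proteases and their inhibitors 3 were higher and 5 lower.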
